A study of Mus musculus with 26 samples.

Results

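This account follows 10 genes of the macrophage compartment and its growth factor axis in the mouse dorsal root ganglion (DRG), which houses the cell bodies of sensory neurons beside the spinal cord. The genes are the growth factors *Csf1* and *Il34*, their shared receptor *Csf1r*, the macrophage markers *Aif1*, *Cd68*, *Adgre1*, *Cd163*, *Mrc1* and *Lyz2*, and the cytokine gene *Il1b*. They were listed by name, and all 10 were found among the 55401 genes counted in 26 RNA-seq libraries. The study compared mice lacking the aryl hydrocarbon receptor gene *Ahr* in neurons with control mice, before and after a crush of the sciatic nerve. Conditional knockout (cKO) mice carried Ahr f/f with Thy1-CRE(ERT2/EYFP), a tamoxifen-inducible Cre under a neuronal promoter. Controls carried Ahr fl/fl or fl/+ (also written f/+) without that transgene. For the naive and crush groups, mice of both genotypes had received tamoxifen at 100 mg/kg once a day on 5 days at 28 weeks of age. Their L4-L6 ganglia were taken 5 weeks later (naive, 3 mice per genotype), or 1 day after a crush made at that time (3 mice per genotype). Further groups were ganglia from both sides of sham-operated mice 1 day after surgery (2 mice per genotype) and semi-purified DRG neurons 24 h after seeding (3 libraries per genotype). Tamoxifen and age were not given for the sham and neuron groups. The naive and neuron libraries are labelled female, the sham libraries male, and the crush libraries 2 female and 1 male per genotype.

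Csf1 and IL-34 are secreted proteins that bind the receptor tyrosine kinase Csf1r, on which most tissue macrophages depend for survival and division. In sensory ganglia, macrophages lie among the neurons and their satellite glia, and injured sensory neurons are a known source of Csf1. Aif1 (Iba1) is an actin-binding protein of macrophages and microglia, Cd68 a lysosomal glycoprotein, and Adgre1 the F4/80 surface receptor. Cd163 is the haemoglobin scavenger receptor and Mrc1 the mannose receptor, both typical of resident macrophages. Lyz2 encodes lysozyme and is also abundant in monocytes and neutrophils, and Il1b encodes the inflammatory cytokine interleukin-1β.

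Total counts ran from 20169388 to 23540375 per library in the 12 naive and crush libraries, from 39306414 to 58751270 in the 8 sham libraries and from 25299938 to 88180611 in the 6 neuron libraries. *Ahr* itself was not lower in cKO libraries: its range was 18.0 to 22.8 CPM, that is counts scaled to the library's total in naive control and 21.4 to 26.8 CPM in naive cKO ganglia, and 44.8 to 54.9 and 44.4 to 57.0 CPM in control and cKO neurons. Gene counts need not show the loss of an exon in 1 cell type. *Thy1*, whose promoter drives the Cre transgene, was higher in naive cKO ganglia (log2 fold change 0.86, edgeR adjusted p 0.00191). Sex-linked transcripts went against the labelled sex in 2 of the 6 crush libraries, control replicate 3 and cKO replicate 2. By these transcripts all control crush libraries were female, while cKO replicate 1 was female and cKO replicates 2 and 3 were male. Levels below are CPM on one scale over all 26 libraries. Differences are log2 fold changes with their standard error (SE) from edgeR's quasi-likelihood test, adjusted by Benjamini-Hochberg over all genes tested, and a gene was called at an adjusted p of 0.05 or less. In whole ganglia, more cells of a type and more RNA per cell cannot be told apart.

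The sequence before the gene start is shown for the 3 genes whose level was higher in cultured neurons than in every ganglion library (values further on), since these genes differed together in that setting. RefSeq's promoter table (GRCm38.p6) held 7 of the 10 genes. Printed 5′ to 3′ on the gene's strand are the 250 bases before the start, with capitals marking motif matches on either strand.
Csf1 (chr3:107760470-107760719, minus strand): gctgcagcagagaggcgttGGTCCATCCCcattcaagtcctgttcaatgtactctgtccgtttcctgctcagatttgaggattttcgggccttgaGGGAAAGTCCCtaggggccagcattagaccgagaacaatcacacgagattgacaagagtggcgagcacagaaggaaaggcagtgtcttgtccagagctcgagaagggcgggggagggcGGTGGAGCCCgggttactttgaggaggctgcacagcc
Cd68 (chr11:69666171-69666420, minus strand): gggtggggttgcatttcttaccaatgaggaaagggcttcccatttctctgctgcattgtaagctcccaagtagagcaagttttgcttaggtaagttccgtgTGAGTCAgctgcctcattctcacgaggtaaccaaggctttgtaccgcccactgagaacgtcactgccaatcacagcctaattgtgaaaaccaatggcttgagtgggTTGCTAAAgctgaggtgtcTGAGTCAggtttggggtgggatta
Il1b (chr2:129371140-129371389, minus strand): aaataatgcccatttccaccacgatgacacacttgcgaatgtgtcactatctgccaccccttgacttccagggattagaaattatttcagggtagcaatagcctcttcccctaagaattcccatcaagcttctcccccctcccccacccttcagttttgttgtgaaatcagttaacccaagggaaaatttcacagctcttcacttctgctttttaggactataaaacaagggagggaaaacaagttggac
The 5 motifs searched were the AP-1 motif TGANTCA (present in 6.75% of 32851 promoter windows of the same length), the cAMP response element TGACGTCA (1.55%), the PU.1 motif GAGGAAG (10.6%), an NF-kB motif of GGG and CC separated by any 5 bases (45.8%) and the C/EBP motif TTGCNNAA (9.56%). The *Csf1* window held 4 NF-kB matches, beginning at -231, -155, -154 and -37 from the gene start, of which the middle pair overlap. The *Cd68* window held 2 AP-1 matches, at -149 and -24, and 1 C/EBP match at -43. The *Il1b* window held none of the 5 letter patterns. No motif was common to the 3 windows, and a match is a description of letters, not of binding.

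*Csf1* rose about 4-fold in the ganglia 1 day after sciatic crush, in both genotypes. It was the 1 gene of the 10 called after crush in either genotype. In naive control ganglia it stood at 25.7, 25.95 and 28.7 CPM, and after crush at 106, 119 and 97.8 CPM. In cKO ganglia the naive values were 24.9, 26.9 and 28.3 CPM and the crush values 82.5, 148 and 103 CPM. The lowest crush library lay above the highest naive library in each genotype, as was so in either direction for 38.4% of all genes in control and 36.3% in cKO. The log2 fold change was 2.01 (SE 0.167, edgeR adjusted p 1.04e-05) for control mice. For cKO mice it was 2.04 (SE 0.168, adjusted p 1.05e-05). Among all genes tested, 21.6% were called after crush in control (12.9% higher) and 18.6% in cKO (10.7% higher), so 1 of 10 members is near the background share. The difference between the genotypes' responses was 0.03 (95% interval -0.47 to 0.54, adjusted p 1), and the interaction called 0% of all genes. *Csf1* lies on chromosome 3 from 107741048 to 107760469 (GRCm38, minus strand), where no other annotated gene overlaps it.

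*Il34*, the other Csf1r ligand, was not called after crush. In control ganglia it stood at 27.0, 26.3 and 31.4 CPM before and 28.9, 26.7 and 28.0 CPM after crush. In cKO ganglia it stood at 23.9, 27.4 and 25.4 CPM before and 25.0, 25.9 and 28.2 CPM after. The ranges overlap throughout. The log2 fold change was -0.02 in control (95% interval -0.18 to 0.15, edgeR adjusted p 0.906) and 0.03 in cKO (interval -0.14 to 0.20, adjusted p 0.829), intervals that leave out a change of the size of *Csf1*. *Il34* (chromosome 8, 110741829 to 110805924, minus strand) contains part of the antisense gene *Gm15894*, whose counts over all 26 libraries came to 20.1% of those of *Il34*. A stranded kit was used, but the strand setting of the counting is not given in the sources used here.

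The ratio of the ligands differed between settings. Per kilobase of exon, naive control ganglia held 5.07 ± 0.316 CPM of *Csf1* and 14.4 ± 1.42 of *Il34* (mean ± SD, n = 3). After crush these levels were 20.4 ± 2.04 for *Csf1* and 14.2 ± 0.561 for *Il34*. The ratio of *Csf1* to *Il34* per kilobase of exon was 0.339 to 0.413 in the 6 naive libraries and 1.22 to 2.12 in the 6 crush libraries. It was 4.19 to 5.94 in the 6 neuron libraries. Which ligand was the higher in naive ganglia depended on the length used. The ratio there was 0.913 to 1.11 in CPM without a length and 3.01 to 3.67 per kilobase of the whole gene span, the length behind the deposited FPKM, which is 19422 bases for *Csf1* and 64096 for *Il34*. The ratio in crush libraries lay above that in naive libraries on each of the 3 scales, at 3.30 to 5.71 in CPM and 10.9 to 18.8 per kilobase of span.

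**Figure D1:**
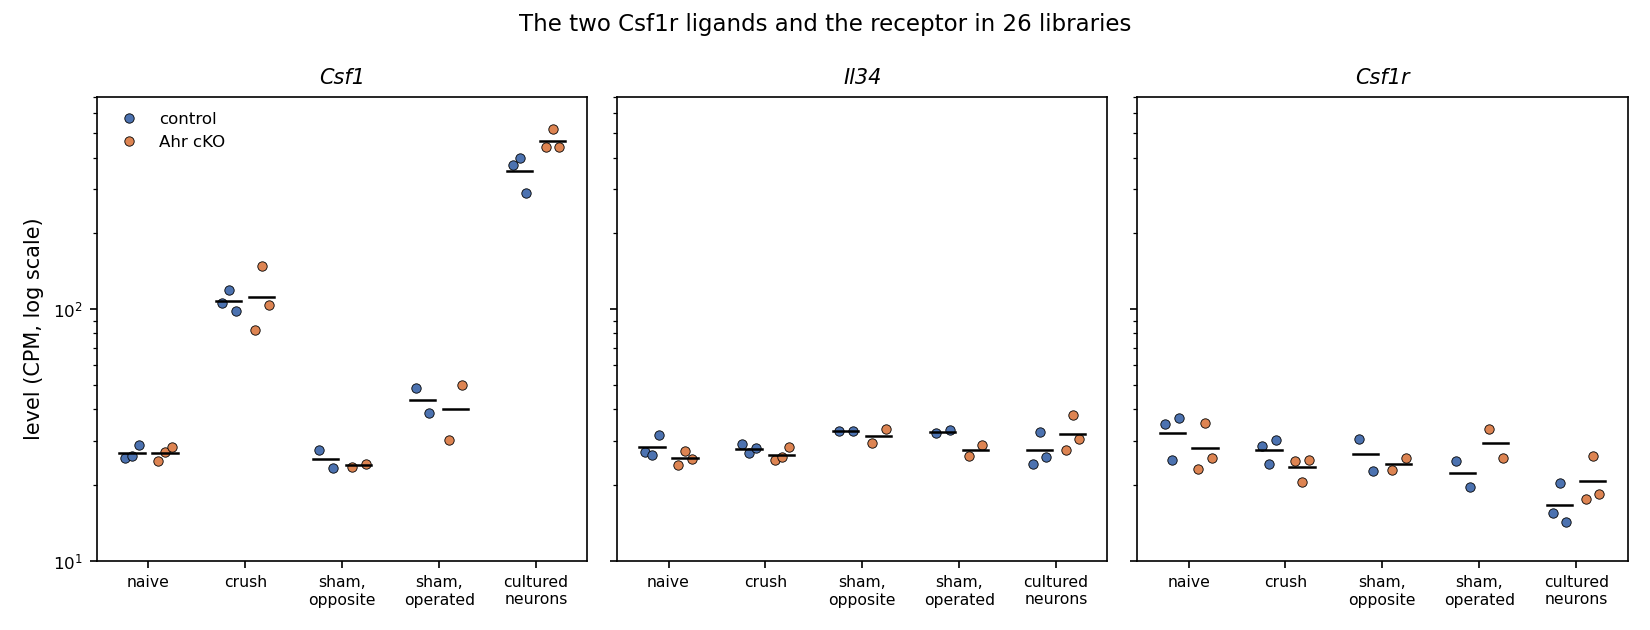
Levels of *Csf1*, *Il34* and *Csf1r* in CPM (log axis) in each of the 26 libraries, by setting (x axis) and genotype (colour); bars mark group means. *Csf1* lay at 24.9 to 28.7 CPM in naive ganglia, 82.5 to 148 after crush and 290.1 to 521 in cultured neurons, while *Il34* kept between 23.9 and 37.8 CPM in all 26.

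The receptor was not called after crush. *Csf1r* stood at 34.8, 25.1 and 36.8 CPM in naive control ganglia and at 28.5, 24.2 and 30.1 CPM after crush. In cKO ganglia it stood at 23.2, 35.1 and 25.5 CPM before and 24.9, 20.5 and 25.1 CPM after. The groups overlap in both genotypes. The log2 fold change was -0.22 (SE 0.165, edgeR adjusted p 0.385) for control mice. For cKO mice it was -0.26 (SE 0.168, adjusted p 0.335). The upper ends of the 95% intervals, 0.14 and 0.11, bound any rise. *Csf1r* (chromosome 18, 61100598 to 61132149, plus strand) overlaps 873 exonic bases of *Hmgxb3* on the opposite strand. If *Hmgxb3* reads were spread evenly over its exons and counted for both genes, they would make up 8.51% to 16.7% of the *Csf1r* counts in naive and crush ganglia. *Hmgxb3* itself was not called after crush (log2 fold change 0.10 in control, adjusted p 0.264, and -0.06 in cKO, adjusted p 0.588).

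No macrophage marker was called together with *Csf1*. None of *Aif1*, *Cd68*, *Adgre1*, *Cd163*, *Mrc1* and *Lyz2* was called after crush in either genotype, with adjusted p-values of all 9 genes other than *Csf1* from 0.333 to 0.906 in control and from 0.187 to 0.906 in cKO (edgeR). *Csf1* was the 1 gene with an unadjusted p of 0.05 or less in each genotype, against 33.8% of all genes in control and 30.8% in cKO. *Aif1* ranged from 0.784 to 2.83 CPM over the 6 naive and from 1.77 to 2.59 CPM over the 6 crush libraries. Its log2 fold change was 0.20 in control (SE 0.257) and 0.45 in cKO (SE 0.274), where the groups did not overlap by a narrow gap, the highest naive library being at 1.75 and the lowest crush library at 1.77 CPM. Without naive control replicate 2 the control value was 0.04, and without naive cKO replicate 1 the cKO value was 0.156. *Cd68* ranged from 2.96 to 5.83 CPM before and from 3.20 to 5.08 CPM after crush, with log2 fold changes of -0.17 and 0.05. *Adgre1* ranged from 5.31 to 9.85 CPM before and from 4.58 to 8.03 CPM after, with log2 fold changes of -0.17 and -0.28.

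*Mrc1* and *Cd163* are the markers typical of resident macrophages. *Mrc1* stood at 15.5, 12.7 and 20.4 CPM in naive control and 18.0, 19.9 and 18.9 CPM in crush control ganglia (log2 fold change 0.23, SE 0.164). In cKO ganglia it went from 10.6, 15.5 and 13.7 CPM to 17.3, 13.9 and 17.9 CPM (0.29, SE 0.167). *Cd163* varied widely between cKO mice. Its values after crush were 11.5, 11.2 and 9.90 CPM in control but 11.8, 2.71 and 5.17 CPM in cKO, and its log2 fold changes were 0.28 (SE 0.409) and -0.26 (SE 0.425). The 2 low cKO libraries are those that are male by sex-linked transcripts, and with that sex as a covariate the cKO value turned to 0.579 (adjusted p 0.471). It also turned to 0.0935 without crush cKO replicate 2, and was -1 without crush cKO replicate 1. For *Cd163* the intervals reach from -0.61 to 1.18 in control and from -1.19 to 0.67 in cKO, so a 2-fold rise in control and a 2-fold fall in cKO both lie within them.

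**Figure D2:**
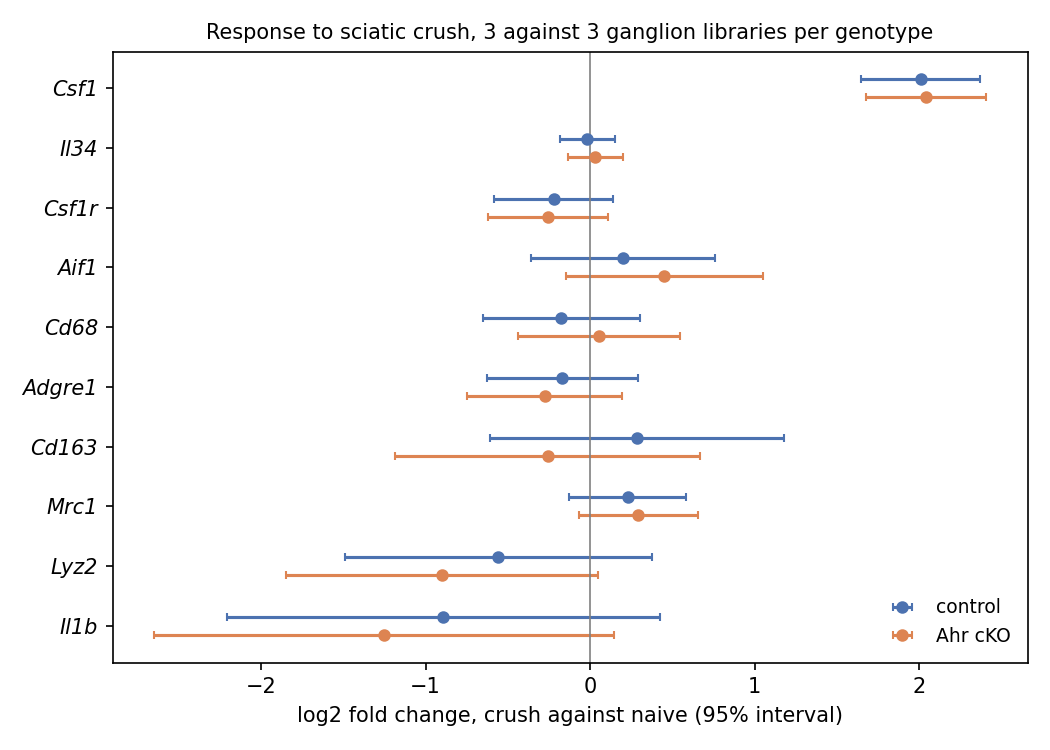
Log2 fold change after sciatic crush (x axis) for each of the 10 genes, with 95% intervals from edgeR, in control and cKO ganglia (colours), 3 against 3 libraries each. Both *Csf1* intervals lie above 1.64, and the intervals of the other 9 genes include 0.

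*Lyz2* and *Il1b* had negative log2 fold changes after crush in both genotypes and were not called. *Lyz2* stood at 388, 112 and 183 CPM in naive control and 159, 82.6 and 220 CPM in crush control ganglia. In cKO ganglia it went from 125, 228 and 149 CPM to 114, 68.9 and 88.7 CPM, without overlap. The log2 fold change was -0.56 (SE 0.429, edgeR adjusted p 0.4) for control mice. For cKO mice it was -0.90 (SE 0.435, adjusted p 0.187). The control value turned to 0.07 without naive control replicate 1, the library with 388 CPM. *Il1b* ranged from 0.507 to 4.72 CPM over the naive and from 0.838 to 2.14 CPM over the crush libraries. Control mice had a log2 fold change of -0.89 (SE 0.603, adjusted p 0.333), which was -0.17 without naive control replicate 1. For cKO mice it was -1.25 (SE 0.64, adjusted p 0.213), and -1.74 (adjusted p 0.0443) without naive cKO replicate 3. Averaged over genotypes, *Csf1* was again the 1 member called (2.02, SE 0.118, adjusted p 2.2e-07), against 18.4% of all genes called higher and 15.7% called lower. In that average *Mrc1* was at 0.26 (adjusted p 0.107), *Csf1r* at -0.24 (0.14), *Lyz2* at -0.73 (0.0864) and *Il1b* at -1.07 (0.0803). Each of these 4 was called when 1 library was left out. *Mrc1* was at 0.359 (adjusted p 0.0214) without naive control replicate 3, and *Csf1r* at -0.32 (0.0384) without naive control replicate 2. *Lyz2* was at -0.896 (0.0277) without naive control replicate 2 and at -0.905 (0.0488) without crush control replicate 3, and *Il1b* at -1.32 (0.0128) without naive cKO replicate 3.

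*Lyz2* moved with genes of monocytes and neutrophils. The summed level of 12 such genes, among them *S100a8*, *S100a9*, *Ly6g* and *Ccr2*, was 869 CPM in naive control replicate 1 and 139 and 216 CPM in its group mates. The next highest library was operated-side sham cKO replicate 1, with a sum of 757 CPM and *Lyz2* at 262 CPM. All 12 had a log2 fold change below 0 for the average crush effect, with 1 called lower (*Camp*, -1.54, edgeR adjusted p 0.0478). Of 5 red blood cell genes, 3 were called lower in the average crush effect (*Hba-a2*, -0.70, *Hba-a1*, -0.64, and *Hbb-bt*, -0.70, haemoglobin genes with near-identical copies), in which 15.7% of all genes were called lower. Their sum ran from 247 to 583 CPM in naive and from 102 to 433 CPM in crush libraries. Of 8 fibroblast genes all were below 0 (median -0.379) and 1 was called lower (*Lum*, -0.42), and of 8 lymphocyte genes 7 were below 0 (median -0.50) and 1 was called lower (*Cd3e*, -0.97). The part of these cells in the *Lyz2* and *Il1b* values was not tested.

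**Figure D3:**
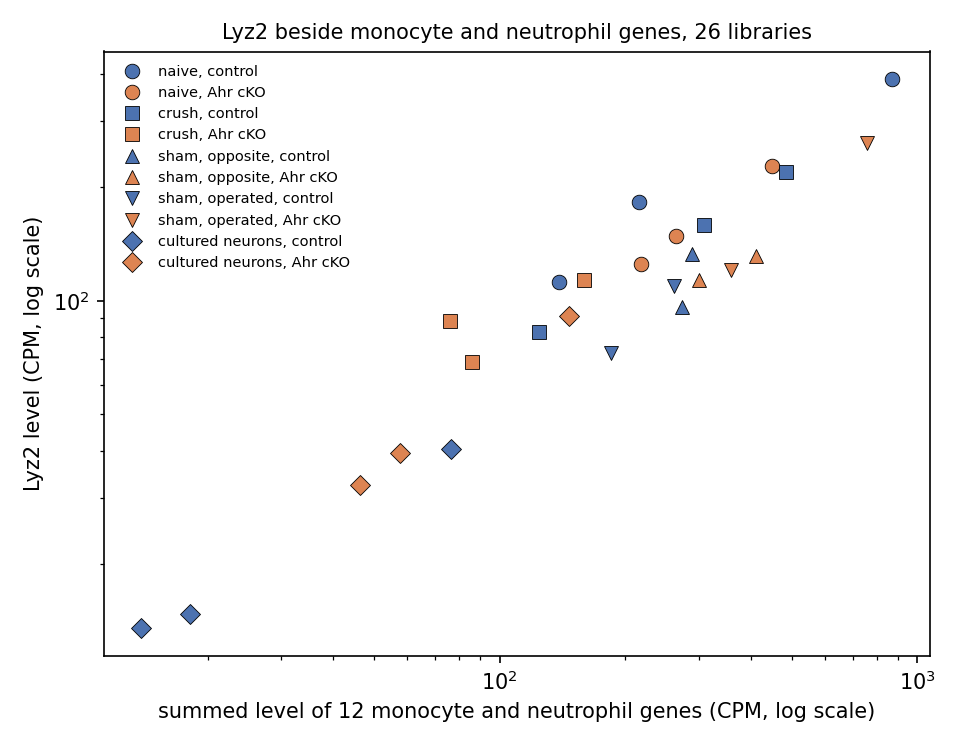
*Lyz2* level against the summed level of 12 monocyte and neutrophil genes, both in CPM on log axes, in the 26 libraries (symbols show the setting, colours the genotype). The libraries with *Lyz2* at 388 and 262 CPM are also those with the highest sums, 869 and 757 CPM.

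Of 10 genes listed as Csf1r ligand partners, adaptors or lineage factors, 1 was called higher in the average crush effect and 1 lower, beside 18.4% of all genes called higher and 15.7% called lower. *Sdc1*, the proteoglycan syndecan-1 that can bind IL-34, went from 41.9 to 55.0 CPM over the naive libraries to 106 to 153 CPM over the crush libraries (log2 fold change 1.47, SE 0.0991, adjusted p 6.46e-07). *Runx1*, a transcription factor of blood cells and sensory neurons, was slightly lower (-0.21, adjusted p 0.00835). Among 7 tested genes of other colony-stimulating factors and their receptors, 2 were higher: *Csf2rb2*, a paralog of the receptor subunit *Csf2rb* (1.07, adjusted p 0.000792), and *Kitl*, the Kit ligand (0.19, adjusted p 0.00425). *Csf2* was at 0 counts in all 12 libraries.

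In the same average effect, 18.4% of all genes tested were called higher and 15.7% lower. Of 20 broad myeloid genes, 2 were called higher, *Cd14* (0.59) and *Ly86* (0.31), both part of lipopolysaccharide recognition. A further 3 were called lower, among them *Lcp1* (-0.39) and *Coro1a* (-0.38). Of 12 genes of resident macrophages, *Gas6* was called lower (-0.23). Of 7 genes of MHC class II antigen presentation, 3 were called lower: *H2-Aa* (-0.44), *H2-Ab1* (-0.44) and *H2-Eb1* (-0.43). Of 8 proliferation genes, *Mki67* (-1.34) and *Cdk1* (-0.95) were called lower. The median log2 fold change of the 20 myeloid genes was -0.176 and that of the 10 genes of this account -0.026, beside -0.0156 over all genes tested.

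Some chemokine and interleukin-1 pathway genes were called after crush. Of 9 tested chemokine genes, 4 were called higher in the average effect and 1 lower, beside 18.4% of all genes called higher and 15.7% called lower. The monocyte attractants *Ccl7* (1.42), *Ccl12* (1.14) and *Ccl2* (1.06) led, and the neuronal chemokine *Cx3cl1* was lower (-0.38). *Ccl2* went from 0.719 to 1.5 CPM before to 1.61 to 2.89 CPM after crush. Of 11 tested genes around interleukin-1, 6 were called higher and none lower. *Il6*, a cytokine that interleukin-1 can induce, was lowest at 0.0396 and highest at 0.386 CPM in naive ganglia and stood at 3.27 to 5.13 CPM after crush (log2 fold change 4.02, SE 0.26, adjusted p 4.53e-07). *Il1r1*, the signalling receptor for interleukin-1, rose by 0.88 (adjusted p 3.35e-06) and the adaptor *Myd88* by 0.61 (adjusted p 0.000159), while *Il1b* itself was not called. These effects are edgeR values over 6 naive and 6 crush libraries. Several of these genes are also expressed outside macrophages.

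Between genotypes edgeR called none of the 10 genes in naive or crush ganglia, and none had an unadjusted p of 0.05 or less there; DESeq2 called none of them either. In naive ganglia, none was called against 0.00941% of all genes, and log2 fold changes ran from -0.57 to 0.01. In crush ganglia the share called was also 0.00941% of all genes, none of them a member. There *Aif1* (-0.32, edgeR adjusted p 1) and *Mrc1* (-0.21, adjusted p 1) were lower in every cKO library than in every control library, as happened for 8.73% of all genes in either direction. In naive ganglia no member had groups without overlap, against 12.1% of all genes. In crush ganglia the sum of 5 red blood cell genes was 433, 355 and 400 CPM in control and 216, 274 and 102 CPM in cKO mice, without overlap, and none of the 5 was called. The sum of 12 monocyte and neutrophil genes was 308, 124 and 485 CPM in control and 159, 85.7 and 75.9 CPM in cKO mice, and that of 8 fibroblast genes 907, 697 and 989 CPM against 735, 603 and 718 CPM. All 12 and all 8 of these had a log2 fold change below 0. So had 19 of 20 broad myeloid genes and 9 of the 10 members, with none called. In naive ganglia the same lists, in that order, had 12 of 12, 5 of 8, 19 of 20 and 9 of 10 below 0. None of them was called there either. The median log2 fold change over all genes was 0.00037 in naive and -0.000477 in crush ganglia. The part of these cells in the *Aif1* and *Mrc1* values was not tested. By sex-linked transcripts all control crush libraries were female, while cKO replicates 2 and 3 were male. Genotype and sex therefore cannot be fully told apart in crush ganglia.

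Cultured neurons held a different mixture of these genes from intact ganglia. Neurons differ from naive and crush ganglia in table, culture and purification at once. From sham ganglia, which are in the same table, they differ in culture, purification and labelled sex. These cannot be told apart, so the levels are a description without a test. *Csf1* was 373, 398 and 290.1 CPM in control neurons and 440, 521 and 439 CPM in cKO neurons, and the group means were 13.2 and 17.5 times those of naive ganglia of the same genotype. *Cd68* stood at 14.99 to 19.9 CPM against 2.70 to 6.07 CPM in the 20 ganglion libraries, and *Il1b* at 7.51 to 25.9 CPM against 0.507 to 4.72 CPM. These 3 genes lay above every ganglion library. The share of all genes lying wholly above or below the ganglion libraries in culture was not computed, so the number of such members cannot be set against a background.

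*Cd163*, *Mrc1* and *Aif1* lay below every ganglion library in culture. *Cd163* lay between 0 and 0.382 CPM in neurons and between 2.71 and 12.8 CPM in ganglia. Neuron control replicate 1 held 0 *Cd163* counts, where 3 counts would be 0.119 CPM. *Mrc1* lay at 0.634 to 1.43 CPM in neurons against 5.52 to 20.4 CPM in ganglia, and *Aif1* at 0.30 to 0.606 CPM against 0.784 to 4.22 CPM. *Lyz2* lay at 13.5 to 91.2 CPM in neurons, overlapping the lower end of the 68.9 to 388 CPM in ganglia. *Adgre1* (3.13 to 8.94 CPM), *Csf1r* (14.2 to 25.95 CPM) and *Il34* (24.1 to 37.8 CPM) overlapped the ganglion ranges. For *Csf1r*, evenly spread *Hmgxb3* reads would make up 27.5% to 44.4% of the counts in neurons.

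Marker genes of other cells moved with the culture. The sum of 8 endothelial genes was 1270 to 1880 CPM in neurons and 145 to 244 CPM in naive ganglia, and that of 7 MHC class II genes 31.2 to 40.2 CPM against 214 to 403 CPM. The sum of 10 neuronal genes was 4550 to 5469 CPM in neurons and 7696 to 9000 CPM in naive ganglia. Of the genes of secreted factors listed, 2 are named here after their values were seen. The neutrophil attractant *Cxcl1* was at 137 to 256 CPM in neurons and at most 0.317 CPM in naive ganglia, and *Csf3*, the granulocyte growth factor, at 15.3 to 49.5 CPM and at most 0.0436 CPM. The part of these differences in the levels of the 10 genes was not tested.

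**Figure D4:**
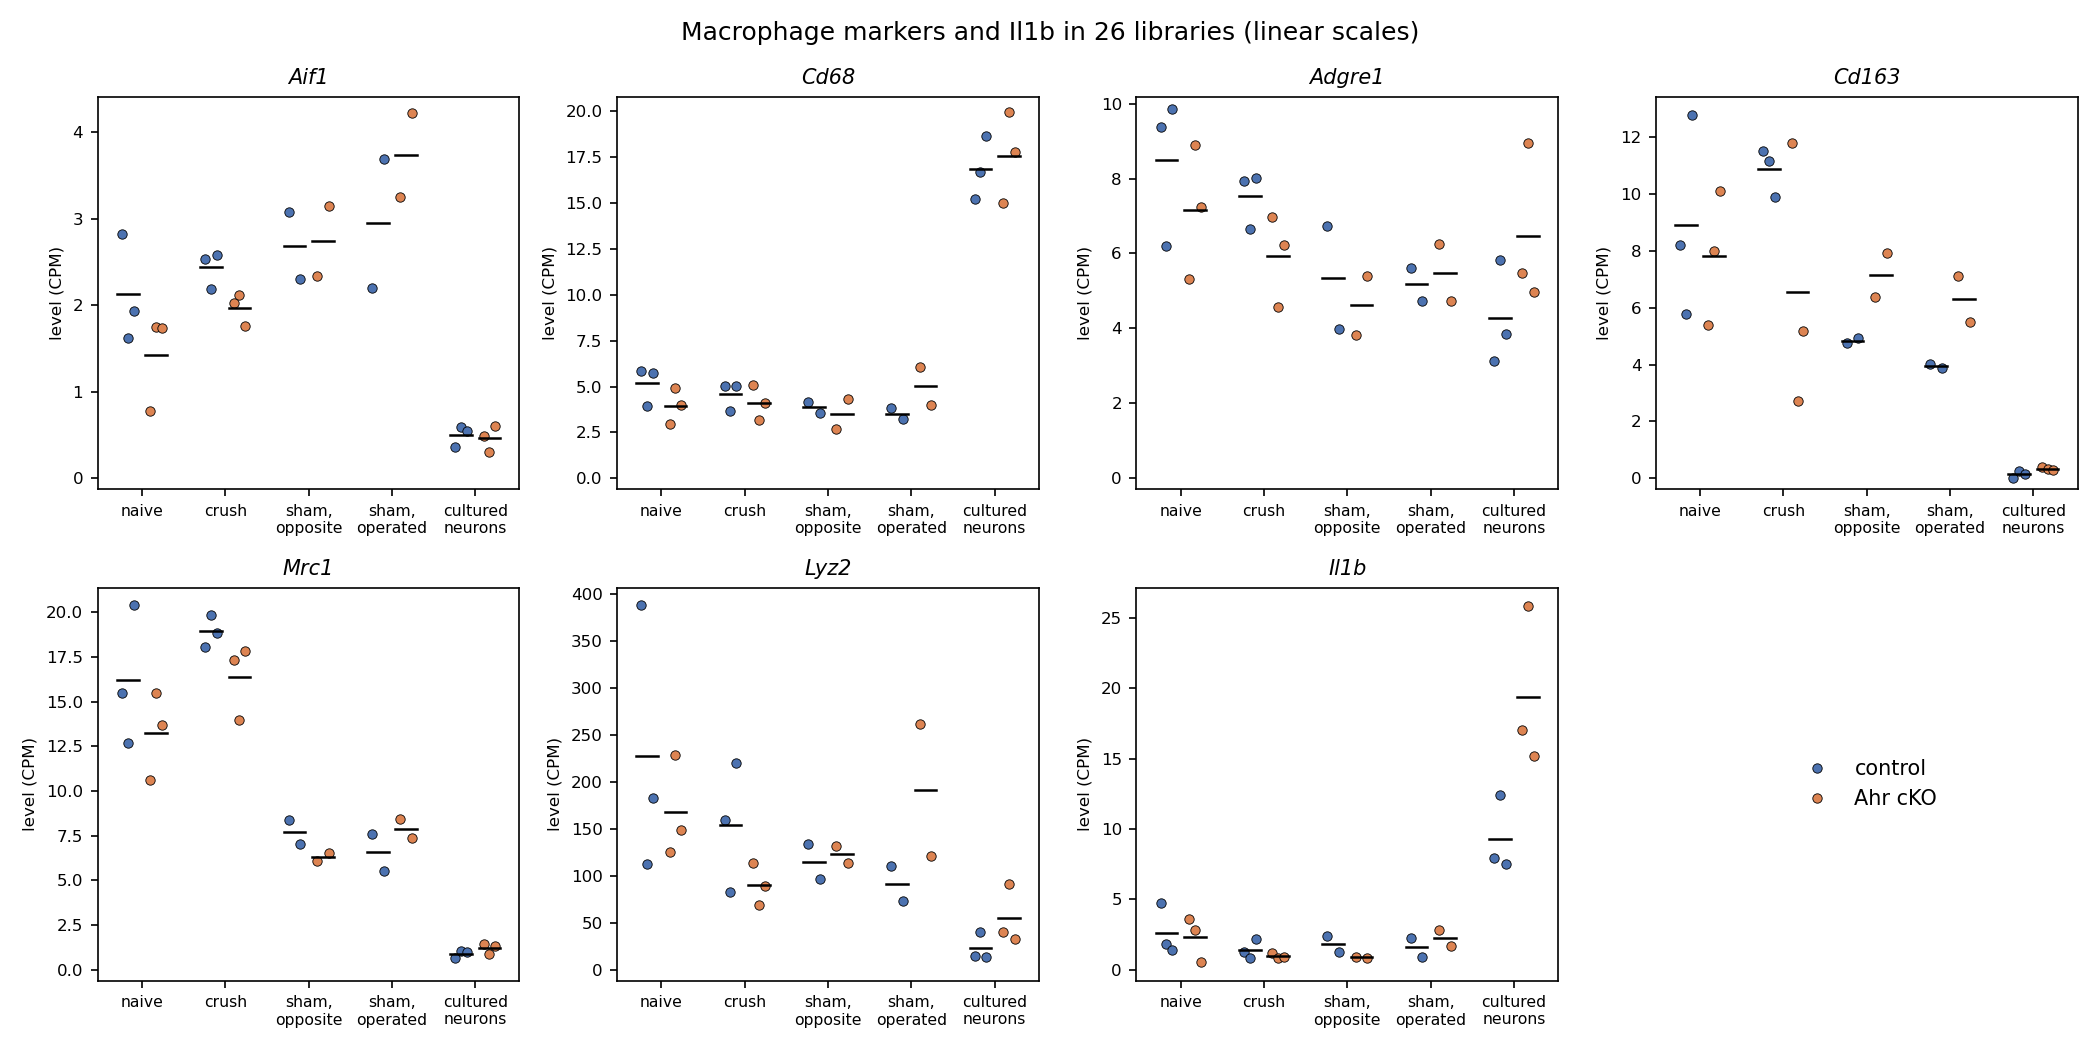
Levels in CPM (linear axes, each with its own scale) of 6 macrophage markers and *Il1b* in each of the 26 libraries, by setting and genotype; bars mark group means. *Cd68* and *Il1b* were highest in cultured neurons, where *Cd163* reached at most 0.382 CPM and *Mrc1* at most 1.43 CPM.

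Within the cultures, *Il1b* was higher in every cKO library than in every control library. Control neurons held 7.93, 12.4 and 7.51 CPM and cKO neurons 17.0, 25.9 and 15.2 CPM. The log2 fold change was 1.05 (SE 0.243, 95% interval 0.49 to 1.60), with an unadjusted p of 0.00249 and an edgeR adjusted p of 0.411 over all genes. With DESeq2 the adjusted p was 0.00287. *Il1b* overlaps the antisense gene *Il1bos*, whose counts over all 26 libraries came to 9.04% of those of *Il1b* and whose log2 fold change in neurons was 1.3 (SE 0.316, edgeR adjusted p 0.435); whether the genes share reads was not tested. *Csf1* was also separated, at 0.40 (SE 0.126, adjusted p 0.547), as was *Cd163* at levels near 0 (0.97, SE 0.538, adjusted p 0.653). *Lyz2* differed by 1.23 (SE 0.494, adjusted p 0.602), with overlap. It stood at 14.8, 40.5 and 13.5 CPM in control and 39.5, 91.2 and 32.5 CPM in cKO neurons. With the replicate number as a block, edgeR called *Lyz2* (1.27, adjusted p 0.0172) and *Il1b* (1.05, adjusted p 0.0371), with 5 genes called in all. No label says that a number pairs these libraries. Leaving out 1 neuron library moved *Lyz2* from 0.637 (without cKO replicate 2) to 1.92 (without control replicate 2), and *Cd163* from 0.655 (without control replicate 1) to 1.58 (without control replicate 2). In the comparison without the block, edgeR called 0% of all genes. Of all genes, 8% had an unadjusted p of 0.05 or less and 14.7% had separated groups, against 3 of 10 members for each. The sum of 12 monocyte and neutrophil genes ran beside these values, at 18.1, 76.5 and 13.9 CPM in control and 57.9, 147 and 46.2 CPM in cKO neurons. The sum of 5 red blood cell genes was 8.40, 11.2 and 5.14 CPM in control and 25.4, 22.9 and 11.4 CPM in cKO neurons. The part of these cells in the *Il1b*, *Csf1* and *Lyz2* values was not tested.

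After sham surgery *Csf1* was higher on the operated side in 4 of 4 mice, a difference that edgeR did not call. In the 4 mice *Csf1* went from 27.5 to 48.6 and from 23.4 to 38.7 CPM in controls, and from 23.5 to 30.0 and from 24.3 to 49.9 CPM in cKO mice, opposite to operated side. Every operated side was higher than its own opposite side, by 1.28 to 2.06 times. The averaged log2 fold change was 0.79 (SE 0.161, 95% interval 0.41 to 1.16), with an unadjusted p of 0.00134 and an edgeR adjusted p of 0.287. It was 0.76 (adjusted p 0.191) with the mouse as a block, and DESeq2 gave an adjusted p of 1.58e-05. In this comparison 0.00451% of all genes were called higher. All 4 operated sides stayed below the lowest crush library, and sham and crush mice were not in one table, so that difference was not tested.

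EdgeR called no member between the sides, with *Csf1* the 1 member at an unadjusted p of 0.05 or less; DESeq2 and edgeR without a filter on low counts each called *Csf1* alone. *Il34* went from 32.7 to 32.0, from 32.8 to 33.0, from 29.2 to 26.1 and from 33.4 to 28.8 CPM (averaged log2 fold change -0.08, edgeR adjusted p 0.862). *Csf1r* went from 30.3 to 24.9 and from 22.7 to 19.7 CPM in controls, and from 22.9 to 33.3 and from 25.6 to 25.6 CPM in cKO mice (0.04, adjusted p 0.981). *Il1b* was lower on the operated side in both control mice (from 2.38 to 2.25 and from 1.26 to 0.924 CPM) and was higher on the operated side in both cKO mice (from 0.892 to 2.84 and from 0.83 to 1.65 CPM). *Lyz2* and *Mrc1* had the same pattern of directions in the 4 mice, though *Lyz2* in cKO mouse 2 was only 1.06 times its opposite side. The share of all genes with this pattern was not computed. The log2 difference of the side effects, cKO minus control, was above 0 for 12 of 12 monocyte and neutrophil genes (median 1.26). The same held for 8 of 8 lymphocyte genes (median 1.34). Endothelial, fibroblast and proliferation genes (8 of 8 each), MHC class II genes (7 of 7) and red blood cell genes (5 of 5) were also all above 0. Of 10 neuronal genes 1 was above 0, of 8 satellite glia genes 3, and of 8 Schwann cell genes 0. The median over all genes was 0.00597, and the share of all genes above 0 is not given here. The part of these cells in the member values was not tested. The interaction of side and genotype called none of the 10 genes and 0% of all genes, with log2 differences from -0.14 to 1.60 (adjusted p 1 for each).

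**Figure D5:**
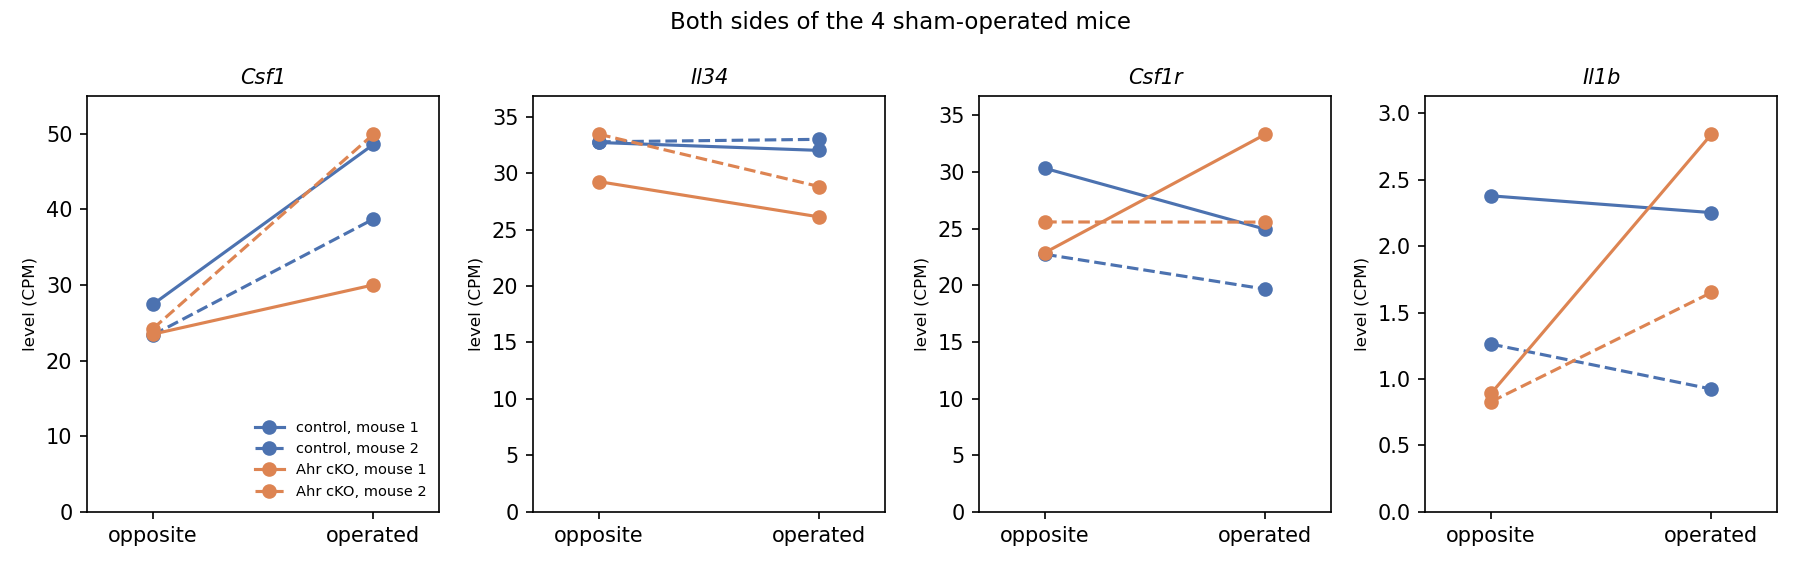
Levels in CPM of *Csf1*, *Il34*, *Csf1r* and *Il1b* on the opposite and operated sides of the 4 sham-operated mice, 1 line per mouse, coloured by genotype. All 4 *Csf1* lines slope upward, by 1.28 to 2.06 times, and the *Il34* lines stay between 26.1 and 33.4 CPM.

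Between sham genotypes edgeR called none of the 10 genes on either side, where 0.00451% of all genes were called on the operated and 0% on the opposite side. *Cd163* was the member separated in the same direction on both sides: its operated-side values were 4.01 and 3.87 CPM in control and 7.11 and 5.48 CPM in cKO (log2 fold change 0.71, edgeR adjusted p 0.498). On the opposite side it was 4.76 and 4.93 against 6.38 and 7.91 CPM (0.56, adjusted p 0.88). Both sides come from the same mice. On the operated side *Lyz2* (1.099, adjusted p 0.557), *Csf1r* (0.43, adjusted p 0.672), *Cd68* (0.55, adjusted p 0.74) and *Il34* (-0.21, adjusted p 0.667) were also separated. Without cKO mouse 1 the values were 0.419 for *Lyz2*, 0.216 for *Csf1r* and 0.206 for *Cd68*. Without a filter on low counts, *Lyz2* (1.08, adjusted p 0.000883) and *Cd163* (0.692, adjusted p 0.0489) were called on this side. On the opposite side *Mrc1* (-0.30, adjusted p 0.888) and *Il1b* (-1.08, adjusted p 0.88) were separated and not called. Without control mouse 1 these values were -0.163 and -0.548. With 2 libraries a group, 35.8% and 38.3% of all genes were separated on the 2 sides. The sum of 12 monocyte and neutrophil genes on the operated side was 262 and 185 CPM in control and 757 and 358 CPM in cKO mice. That of 8 lymphocyte genes was 10.6 and 5.98 CPM against 18.7 and 13.9 CPM. Their part in the *Lyz2* and *Cd68* values was not tested.

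Ordered by mean level, *Csf1* was lowest in opposite-side sham ganglia (23.9 ± 0.521 CPM in cKO and 25.4 ± 2.87 CPM in control, SD, n = 2). Naive ganglia followed (26.7 ± 1.70 CPM in cKO and 26.8 ± 1.67 CPM in control, n = 3), with ranges that overlapped those of the control opposite side. Operated sham ganglia (40.0 ± 14.1 CPM in cKO and 43.7 ± 6.98 CPM in control) stood above these, crush ganglia (108 ± 10.8 CPM in control and 111 ± 33.2 CPM in cKO) above those, and neurons (354 ± 56.4 CPM in control and 467 ± 47.3 CPM in cKO) highest. At each of these 3 steps the libraries of the 2 settings did not overlap. The share of all genes separated in the same way was not computed. The settings at each step also differ in labelled sex, depth and table, so the order is a description and was not tested. Over the 12 naive and crush libraries, the 5 genes most like *Csf1* among 18400 were *Rin1*, *Srxn1*, *Tubb6*, *Ptk2* (Pearson r 0.997 each) and *Itga7* (0.996) on log2 CPM, values that rest on the gap between naive and crush libraries. The 5 most like *Csf1r* were *Fkbp9* (0.97), *Tgfbi* (0.964), *Olfml3* (0.963), *Prelp* (0.962) and *Islr* (0.961). Among members, *Csf1r* was most like *Adgre1* (r 0.952), and *Csf1* and *Csf1r* had an r of -0.466. These correlations share libraries and depth and are descriptions.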

How the data were processed

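The authors deposited counts per gene and FPKM for the same libraries, in 2 tables each. Per the submitters' processing notes, Trim Galore, HISAT2, featureCounts and mm10 were used; versions, roles and the strand setting are not given in the sources used here. Per the labels' protocols, libraries were TruSeq Stranded mRNA from RNeasy Plus RNA. In the deposited FPKM values the length equals the whole gene span for 99.01% of genes (tolerance 0.1%), while whether the counts take in intronic reads, or share reads between overlapping genes, is not given in the sources used here.

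From these files, the counts were tested with edgeR 4.0.16 (R 4.3.3; TMM, filterByExpr with a minimum count of 10, quasi-likelihood F test) in 3 fits: 12 naive and crush libraries (21261 genes), 8 sham libraries (22160) and 6 neuron libraries (23295). All 10 members passed the filter in each fit. A gene was called at an adjusted p of 0.05. CPM used TMM factors over all 26 libraries. Per-kilobase levels used GENCODE M21 exon lengths (GRCm38), and IDs were matched without version (55141 of 55401 to a symbol). Alternatives were DESeq2 1.42.0, its size factors, no filter, limma 3.58.1 on log2(FPKM + 0.1), replicate block, sex as a covariate, only the groups compared, for the ligand ratio the length divided by (added after seeing the data), and leaving out each library in turn. Each ganglion library is labelled as 1 mouse, the same mice giving both sham sides, so those sides are paired by mouse; deviations of the sides correlated at 0.29 in control and -0.292 in cKO pairs. Each neuron library carries a mouse number in its deposited column name, while whether the cultures were prepared separately is not stated. The p-values of the neuron fit measure the spread between these samples. Intervals are 95%, and a count of 0 is set beside 3 counts; both cover counting or replicate error only. The test scripts were tested on simulated data. The named genes are all 10 members, up to 3 called genes per list and direction by smallest p, and the 5 genes nearest to *Csf1* and *Csf1r*; log2 fold changes by genotype and by side are printed for members with an unadjusted p under 0.05 or separated groups, and for the ligands and receptor. Members, lists and these choices were made with earlier results of these data known. Called genes of the neuron, satellite glia and endothelial lists are not named, and the value of 1 further gene that the rule selects is not reported here.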

Additional observations from a re-analysis of the deposited data

Results flagged for a closer look

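*Il1b* stood apart because every cKO library lay on opposite sides of every control library in different settings. In cultured neurons cKO was higher (log2 fold change 1.045, 3 against 3 libraries), and in opposite-side sham ganglia cKO was lower (-1.085, 2 against 2, and -0.548 without control mouse 1). The difference between these settings was not tested, and 110 pairs of settings and members were looked through. With 2 libraries a group, 38.3% of all genes were separated in the sham comparison. No group had 4 or more libraries, so single libraries were not tested as outliers.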

How the results depend on the processing

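*Csf1* was called after crush under every alternative run, including each library left out (log2 fold change 1.93 to 2.07 in control, 1.78 to 2.2 in cKO and 1.89 to 2.1 on average). Members called elsewhere varied. DESeq2 called 1 member lower in the average crush effect (*Il1b*, -1.09, adjusted p 0.0443), 1 higher in cKO neurons (*Il1b*, 1.05, adjusted p 0.00287) and 1 higher on the operated sham side (*Csf1*, 0.778). With no filter on low counts, 1 member was higher on the operated side (*Csf1*, 0.777, adjusted p 2.63e-05) and 2 in operated-side cKO ganglia (*Cd163*, 0.692, adjusted p 0.0489, and *Lyz2*, 1.08, adjusted p 0.000883). In the neuron and sham comparisons those settings also called more of all genes: in cKO neurons DESeq2 called 163 and no filter 27 against 0, between sham sides 200 and 381 against 1, and between operated-side genotypes 153 and 626 against 1. In the average crush effect they called fewer, 6558 and 6755 against 7247. With only naive and crush cKO libraries, 1 member was lower after crush (*Lyz2*, -0.9, adjusted p 0.0362). Leaving out 1 library gave 0 to 1 members lower in cKO, and 1 to 2 higher and 0 to 2 lower in the average; the libraries concerned were naive control 2 and 3, naive cKO 3 and crush control 3. The cause was not tested.

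Same-numbered naive and crush libraries did not deviate together (r -0.557 to 0.529). Same-numbered neuron libraries all had an r above 0 (0.0882, 0.286 and 0.406), and 6 of 6 neuron libraries correlated best with their own number. Since 1 neuron pair was only at 0.0882 and no label pairs the libraries, numbers were not taken to pair them in the main fit. The replicate block left *Csf1* called (2.01 in control, 2.02 in cKO, 2.01 on average) and called 2 members higher in cKO neurons (*Lyz2*, 1.27, adjusted p 0.0172, and *Il1b*, 1.05, adjusted p 0.0371), with 5 genes called in all against 0. With the mouse as block, run for the side effect and its interaction with genotype, no member was called and 4 genes against 1 were called between the sides.

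The values that changed sign were not called, and most lay near 0. limma on FPKM gave -0.000342 for *Il34* after crush in cKO, -0.0333 on average and 0.00414 for the *Csf1r* interaction. Labelled sex as a covariate gave -0.0226 for *Il34* on average. Sex read from transcripts gave -0.0418 for *Il34* and 0.579 for *Cd163* in cKO, -0.0292 for *Il34* on average, and interactions of -0.393 for *Csf1*, -0.0252 for *Il34* and 0.0486 for *Csf1r*; it called 1414 genes after crush in cKO against 3962. Without the 2 libraries against their labelled sex, a choice made after seeing the data, *Cd163* in cKO was 0.097 and the interactions were -0.281 for *Csf1* and 0.125 for *Csf1r*. Leaving out each library gave ranges of -0.0647 to 0.0626 for *Il34* and -0.911 to 0.065 for *Lyz2* after crush in control, and in cKO -0.0303 to 0.0662 for *Il34*, -0.136 to 0.225 for *Cd68* and -1 to 0.0935 for *Cd163*. The averaged *Il34* effect ran from -0.0266 to 0.0474, the interactions from -0.224 to 0.199 for *Csf1*, -0.0304 to 0.0897 for *Il34* and -0.153 to 0.15 for *Csf1r*, and the sham side effect of *Csf1r* from -0.109 to 0.167. *Il1b* had 12 to 110 counts per naive or crush library, where its SE was 0.603 in control and 0.64 in cKO; in neurons it had 200 to 1986 counts and an SE of 0.243.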
